A study of Mus musculus with 6 samples.

Results

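Messenger RNAs of 10 inflammatory cytokines were followed through single-cell RNA sequencing of 6 mouse rhabdoid tumors. The genes were listed by name as *Il1a*, *Il1b*, *Il1rn*, *Il6*, *Il10*, *Il18*, *Il23a*, *Tnf*, *Osm* and *Tgfb1*, out of 16557 genes present in at least 1 tumor. For each, UMIs (unique molecular identifiers, each standing for 1 captured transcript) and cells with at least 1 UMI (positive cells) were counted in tumor cells and in every kind of immune cell. A tumor's table lists a gene only where it was found in at least 3 cells, and an unlisted gene was counted as 0 although up to 2 cells may have held it.

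All 6 mice were *Smarcb1* fl/fl animals exposed in utero to tamoxifen, given to the pregnant dams at 50 mg/kg on day 6.5 post coitum, so that an inducible Cre recombinase deleted *Smarcb1*, a core subunit gene of the SWI/SNF chromatin remodeling complex. The MYC spinal group held tumors S1, S2 and S3 (its replicates 1, 2 and 3) of the Rosa26-cre strain, with spinal localization, at 19, 26 and 17 weeks of age. The eRT (extracranial rhabdoid tumor) group held E1 (Rosa26-cre, gland, 17 weeks), E2 (Sox2-cre, jaw, 29 weeks) and E3 (Sox2-cre, shoulder, 22 weeks), its replicates 1, 2 and 3. Rosa26 drives Cre in nearly every cell type and *Sox2* in early progenitors, and only eRT held tumors of the *Sox2* line. Subtype cannot be told apart from tumor site, nor fully from strain and age. Tissue without a tumor was not analysed here, each tumor is 1 library, and dissociated cells were sorted for viability before capture. *Il1a* and *Il10* were unlisted in S2, *Il6* in S1, and *Il23a* everywhere except S3 and E2.

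IL-1α and IL-1β, made mainly by myeloid cells, share a receptor that activates NF-κB, and the antagonist IL-1Ra, the product of *Il1rn*, occupies that receptor without signaling. IL-1β and IL-18 are stored as precursors and cut by caspase-1 in an inflammasome, so their mRNA does not report release. TNF is an early product of activated macrophages, and IL-6 and oncostatin M signal through gp130. IL-23 needs the p19 subunit (*Il23a*) paired with p40 (*Il12b*). IL-10 restrains inflammation, as does TGF-β1 once activated from its latent form.

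After filtering, 22163 cells remained, 1469 to 6740 per tumor, with 3841706 to 26184224 UMIs per tumor and medians of 916 to 5211 UMIs per cell. Cells were named from marker genes after clustering without the 10 cytokines, and tumor cells were the *Smarcb1*-depleted clusters, with 103, 1 and 1566 cells in S1, S2 and S3 and 68, 203 and 620 in E1, E2 and E3. S2 therefore gave no usable tumor cells, and it held 839 of the granulocyte-monocyte progenitor-like cells and 1255 of the neutrophil-like cells. Neutrophil-like cells reached the 10 cells needed for a sum in S2, S3 (158 cells) and E2 (199 cells) alone. Levels below are CPM, counts per 1000000 UMIs of that kind of cell in that tumor. Intervals are exact at 95% and cover counting error only.

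**Figure D1:**
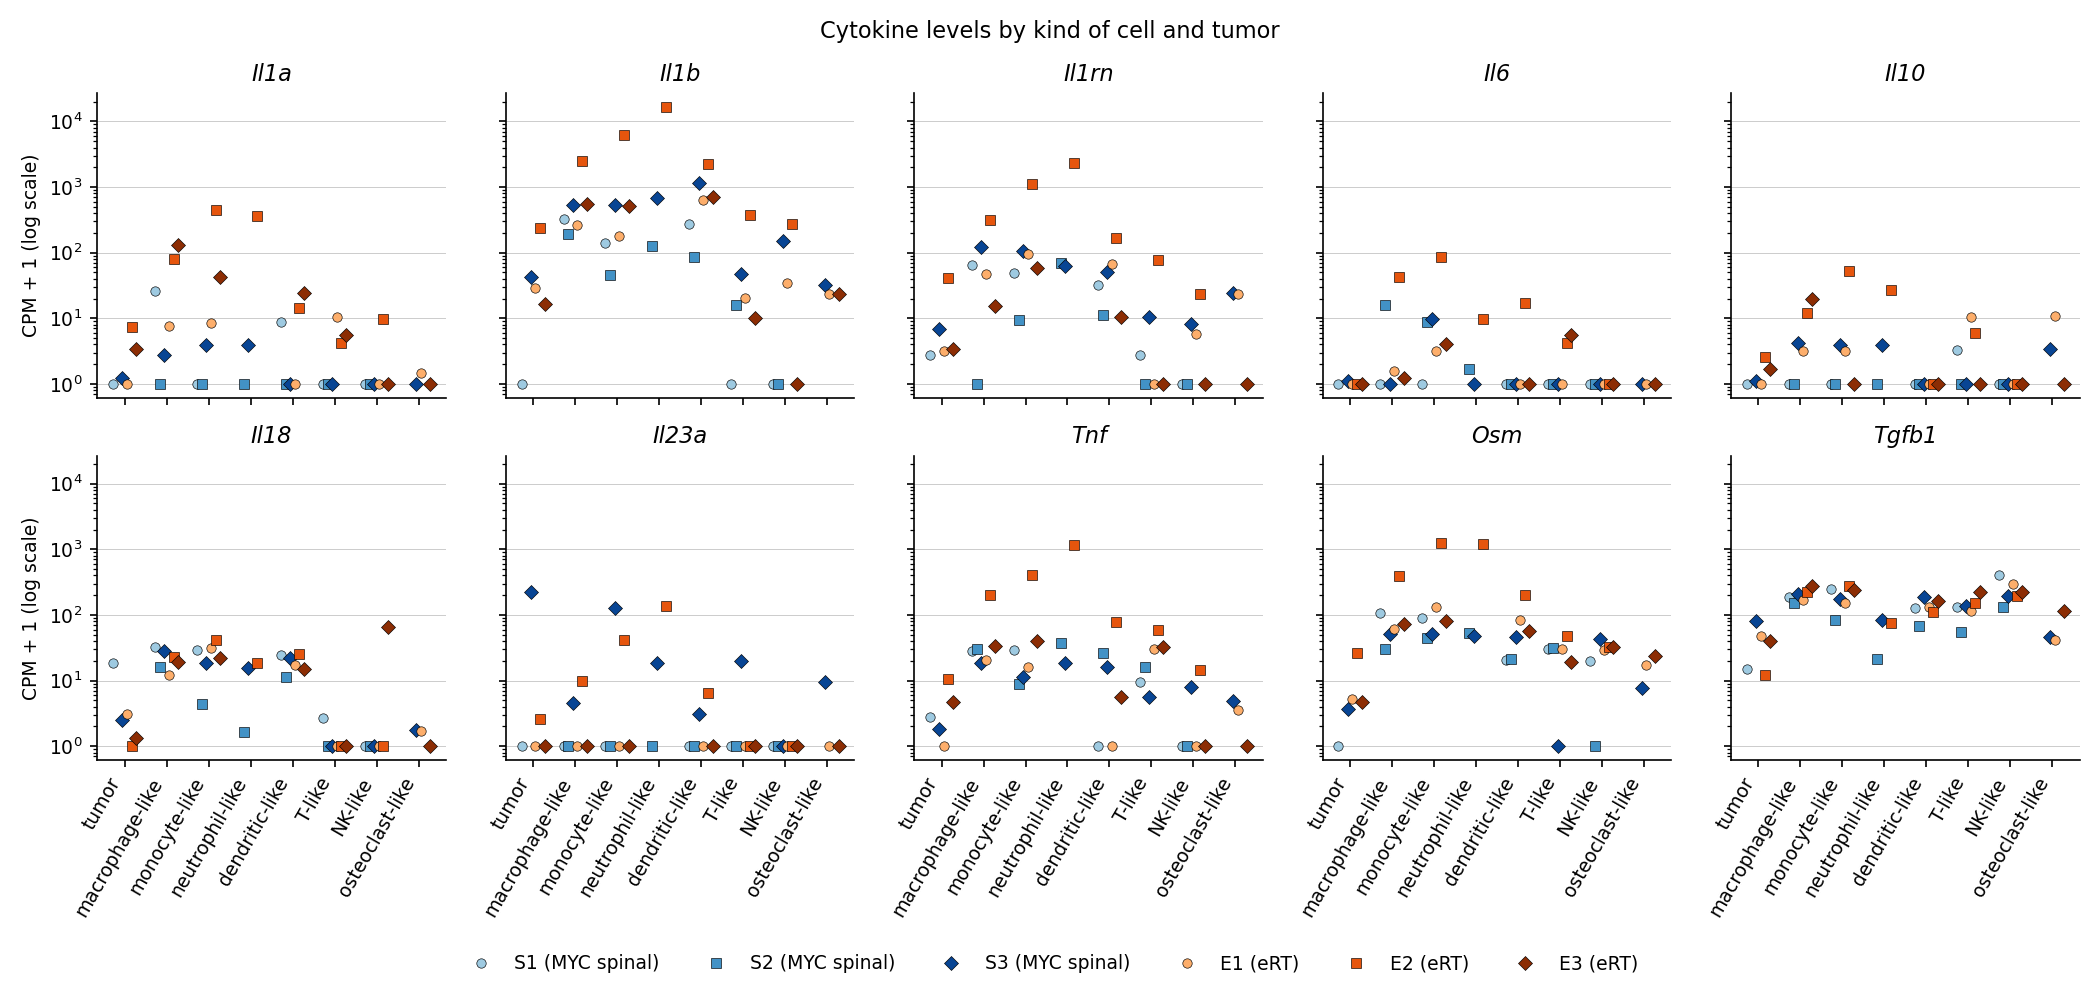
CPM + 1 on a log axis for each of the 10 cytokines (panels) by kind of cell (horizontal axis), 1 point per tumor with at least 10 cells of that kind, blue for MYC spinal and orange to brown for eRT. E2 is highest for *Il1b*, *Il1rn*, *Tnf* and *Osm* in macrophage-like, monocyte-like and neutrophil-like cells, and S3 for *Il23a* in tumor cells.

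*Il1b*, coding for IL-1β, was found in 4786 cells with 20918 UMIs. In macrophage-like cells it measured 321, 194 and 538 CPM in S1, S2 and S3 and 262, 2478 and 553 CPM in E1, E2 and E3. In monocyte-like cells the values in the same order were 137, 44.7 and 533 CPM against 176, 6134 and 507 CPM. E2, the jaw tumor, was the highest in both kinds, and without it the MYC spinal and eRT ranges overlapped. Neutrophil-like cells held 124 CPM in S2, 675 in S3 and 16410 in E2 (interval 15890 to 16940), where 198 of 199 cells were positive with a median of 17 and a maximum of 63 UMIs per cell. Dendritic-like cells carried 272, 86.3 and 1168 CPM in S1, S2 and S3 against 625, 2253 and 706 CPM in E1, E2 and E3. In T-like cells, which are not known as an IL-1β source, the gene was at 0 in S1 (0 of 881 cells, below the 1.73 CPM that 3 counts would give), at 9.09 to 46.5 CPM in S2, S3, E1 and E3, and at 369.6 CPM in E2.

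Shares of positive cells in E2 were read beside a kind that should lack the gene. In E2, 90.5% of monocyte-like cells were *Il1b*-positive (median 1301.5 UMIs per cell), against 18.7% of T-like cells (median 1136.5), and thinning every cell to 500 UMIs left 79.1% and 11.1%. Monocyte-like cells of the other tumors were positive in 3.76% (S2) to 45.8% (S3). The T-like share in E2 is the one to set beside low shares in that tumor, and how much of it is free RNA was not tested.

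**Figure D2:**
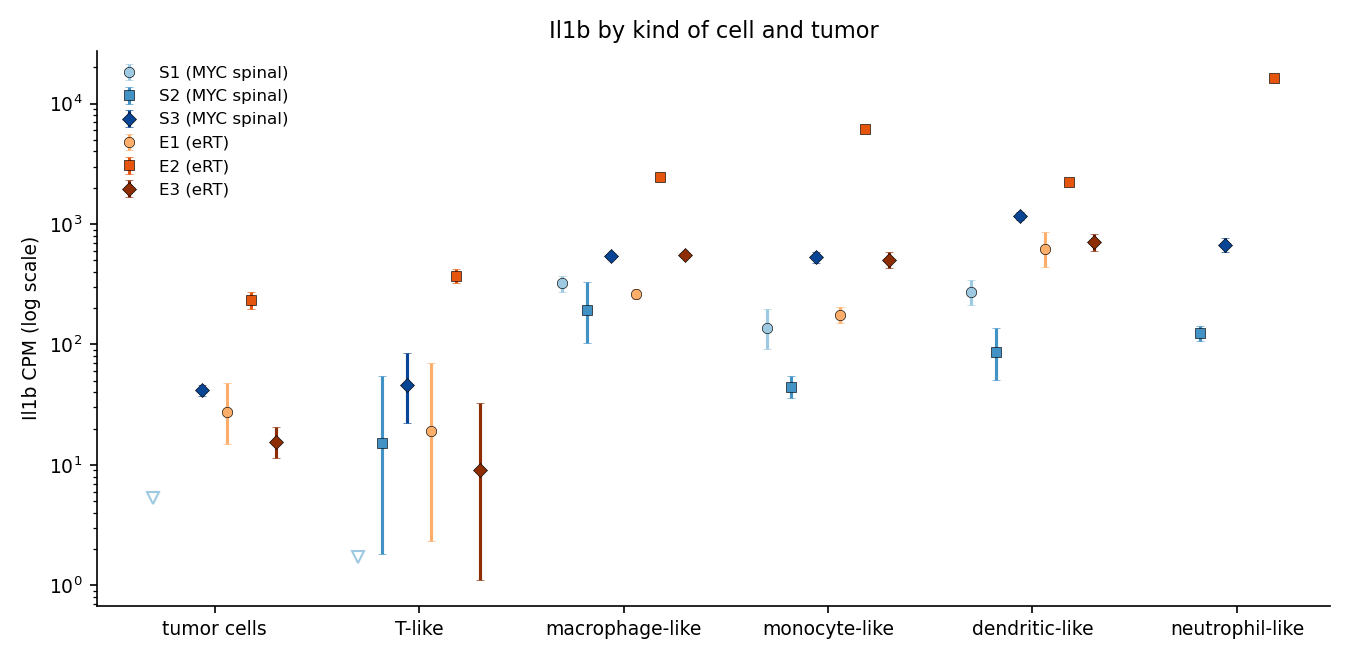
*Il1b* in CPM on a log axis for tumor, T-like, macrophage-like, monocyte-like, dendritic-like and neutrophil-like cells, 1 point per tumor with exact 95% Poisson intervals, MYC spinal and eRT in different colors and open triangles at the value of 3 counts where no UMI was found. E2 is the highest in each of these 6 kinds, with 16410 CPM in neutrophil-like cells and 233 CPM in tumor cells.

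The promoters of *Il1b*, *Tnf* and *Il1rn*, which were all highest in the myeloid cells of E2, are given as the 250 bases before the RefSeq start (GRCm38.p6), 5′ to 3′ on the gene's strand, with matched motifs in capitals. *Il1b* lies at chr2:129364570-129371139, *Tnf* at chr17:35199381-35202007, both on the minus strand, and *Il1rn* at chr2:24336853-24351494 on the plus strand. The windows are chr2:129371140-129371389 (minus), chr17:35202008-35202257 (minus) and chr2:24336610-24336859 (plus, the first of 3 listed starts).
Il1b: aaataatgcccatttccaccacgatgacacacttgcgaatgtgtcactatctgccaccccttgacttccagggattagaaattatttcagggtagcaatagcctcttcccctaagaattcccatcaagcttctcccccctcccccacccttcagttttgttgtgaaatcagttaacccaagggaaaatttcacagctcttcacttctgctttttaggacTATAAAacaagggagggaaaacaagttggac
Tnf: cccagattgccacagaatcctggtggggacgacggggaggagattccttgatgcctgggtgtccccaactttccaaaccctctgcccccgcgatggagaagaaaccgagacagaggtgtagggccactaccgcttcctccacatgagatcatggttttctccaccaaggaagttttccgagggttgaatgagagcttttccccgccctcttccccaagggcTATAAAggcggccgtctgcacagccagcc
Il1rn: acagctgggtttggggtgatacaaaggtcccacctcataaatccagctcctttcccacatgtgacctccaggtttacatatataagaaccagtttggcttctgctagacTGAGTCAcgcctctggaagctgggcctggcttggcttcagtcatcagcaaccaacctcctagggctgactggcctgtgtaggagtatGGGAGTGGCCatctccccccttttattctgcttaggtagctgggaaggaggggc

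On either strand, TATAAA was matched 31 bases before the start of *Il1b* and 29 before that of *Tnf*, whereas the *Il1rn* window held an AP-1 match (TGANTCA) 141 bases and an NF-κB match (GGGA and CC around any 4 bases) 54 bases before the start. The windows of the other listed *Il1rn* starts, chr2:24345041-24345290 and chr2:24345121-24345370, held no match to any of these motifs. Which start the cells used was not tested, and a gene is counted below if any of its windows matched. Of the 10 cytokine genes, 7 had an entry, with 9 starts, while *Il10*, *Il23a* and *Osm* had none. TATAAA was matched in 4 genes (*Il1a*, *Il1b*, *Il18*, *Tnf*). In *Il18* the match was on the other strand, 175 bases before the start. AP-1 was matched in 3 (*Il1a*, *Il1rn*, *Il6*) and NF-κB in 3 (*Il1rn*, *Il6*, *Tgfb1*). Among 32851 promoters of the same length, 12.4% held TATAAA, 6.75% the AP-1 letters and 17.6% the NF-κB letters, the motifs not overlapping in the sequences shown. These matches describe letters in a short window and were not tested against the levels.

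*Il1rn*, the antagonist gene, was found in 1792 cells with 3330 UMIs. Macrophage-like cells held 64.2, 0 and 120 CPM in S1, S2 and S3, where the 0 in S2 rests on 103 cells of low depth (3 counts would be 44.7 CPM), and 45.7, 318 and 14.5 CPM in E1, E2 and E3. Monocyte-like cells held 47.3, 8.27 and 105 CPM against 95.5, 1101 and 57.0 CPM. Again E2 was the highest, and E3, second in macrophage-like *Il1b*, was among the lowest for the antagonist.

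The balance of agonist and antagonist transcripts was therefore set out per tumor as the *Il1rn* share of *Il1b* plus *Il1rn* UMIs, for sums of at least 30 UMIs of both. The 3′ chemistry counts transcript ends, so the share does not scale with transcript length. In macrophage-like cells it was 16.7% (interval 11.8 to 22.6) in S1 and 18.2% (16.6 to 19.9) in S3, against 14.8% (12 to 18.1), 11.4% (9.68 to 13.2) and 2.55% (1.98 to 3.24) in E1, E2 and E3. S2, with 13 *Il1b* and 0 *Il1rn* UMIs in these cells, fell under the limit of 30 and has no share. The interval of E3 lay apart from those of S1, S3, E1 and E2, at 65 *Il1rn* to 2480 *Il1b* UMIs. In monocyte-like cells the share ranged from 10.1% (E3) to 35.2% (E1), and in neutrophil-like cells it was 35.9% in S2, 8.37% in S3 and 12.5% in E2. Dendritic-like cells, again without S2, had shares from 1.32% (E3) to 10.4% (S1). Osteoclast-like cells, present in number in S3 and E1 only, had shares of 42.9% and 50.8%. Thus E2, with the highest level of both genes, did not stand out in their ratio.

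**Figure D3:**
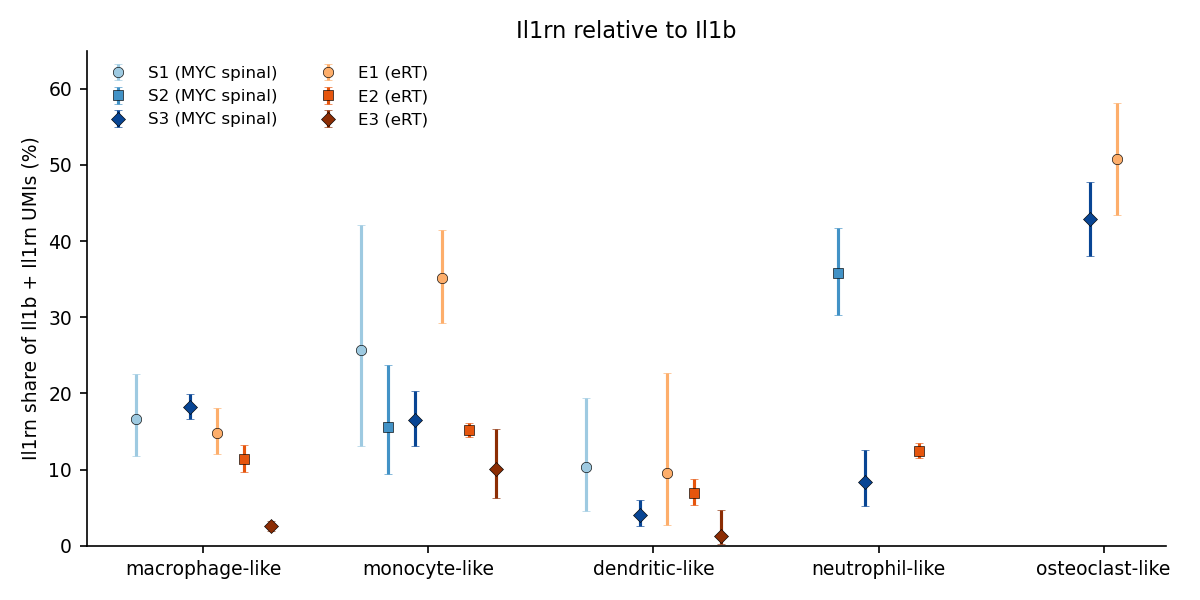
*Il1rn* as a percentage of *Il1b* plus *Il1rn* UMIs (vertical axis) for each kind of cell and tumor, with exact 95% binomial intervals. Macrophage-like cells of E3 sit at 2.55%, below the 11.4% to 18.2% of S1, S3, E1 and E2, and those of S2 had too few UMIs to be shown. Osteoclast-like cells sit highest at 42.9% and 50.8%.

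*Il1a*, the gene of the cell-associated agonist IL-1α, was concentrated in the *Sox2*-cre eRT, with 511 UMIs in E2 and 831 in E3 against 0 to 25 in the other 4 tumors. In E3 it was carried by macrophage-like cells, 592 UMIs in 411 of 1976 cells (132 CPM, interval 122 to 143), compared with 79.5 CPM in E2 and 25.3, 0, 1.78 and 6.604 CPM in S1, S2, S3 and E1. In E2 it was carried by monocyte-like cells at 448.5 CPM (160 of 570 positive) and neutrophil-like cells at 359.7 CPM (52 of 199 positive), where E3 had 42.0 CPM in monocyte-like cells. The kind of cell with most *Il1a* thus differed between the 2 tumors.

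*Il18*, a precursor cytokine that macrophages make constitutively, was low, with 503 UMIs in 462 cells. Macrophage-like cells held 31.1, 14.9 and 26.8 CPM in S1 to S3 against 11.01, 22.1 and 18.1 CPM in E1 to E3, and the groups overlapped. Monocyte-like cells held 28.4, 3.40 and 17.6 CPM against 30.1, 41.2 and 21.0 CPM, with E2 the highest and S2 the lowest. T-like cells had 3 *Il18* UMIs in all, each in S1. In tumor cells the gene reached 17.7 CPM in S1 (10 UMIs in 9 of 103 cells, none of them with a UMI of *Ptprc*, the pan-leukocyte gene) and 0 to 2.14 CPM in the other tumors.

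*Tnf* was found in 988 cells with 1422 UMIs. Macrophage-like cells held 27.2, 29.8 and 17.8 CPM in S1, S2 and S3 and 19.8, 199 and 32.1 CPM in E1, E2 and E3. Monocyte-like cells held 28.4, 7.78 and 10.2 CPM against 15.03, 400.0 and 39.0 CPM, and neutrophil-like cells 36.8 CPM in S2, 17.6 in S3 and 1144 in E2. Apart from E2, all macrophage-like values lay between 17.8 and 32.1 CPM, a narrower range than that of *Il1b* over the same tumors. The S2 value rests on 2 UMIs (interval 3.61 to 107.6 CPM) and the S1 value on 14 (14.9 to 45.7 CPM). In E2, 56.8% of neutrophil-like cells were positive (36.7% after thinning), against 5.35% of T-like cells.

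*Osm*, a gp130 cytokine of activated myeloid cells, was found in 1928 cells with 3410 UMIs. Its values in monocyte-like cells were 89.8, 43.3 and 49.7 CPM in S1 to S3 against 131, 1265 and 80.9 CPM in E1 to E3, and in macrophage-like cells 107, 29.8 and 49.9 CPM against 59.4, 395 and 72.7 CPM. Neutrophil-like cells held 52.8 CPM in S2, 46.9 in S3 and 1201 in E2. E2 stood above the rest in all 3 kinds, and the other 5 tumors overlapped between the groups.

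*Il6* was rare, with 190 UMIs in 116 cells, of which 98 UMIs lay in E2 and 75 in S2. In E2 the carriers were monocyte-like cells, 69 UMIs in 45 of 570 cells (83.6 CPM), followed by macrophage-like cells at 42.0 CPM, and the 4 remaining tumors had 0 to 9 UMIs each. In S2 the UMIs lay in unnamed cells (36 UMIs), granulocyte-monocyte progenitor-like cells (20 UMIs) and monocyte-like cells (16 UMIs in 9 cells, 7.78 CPM). By a rule set after these values were seen, cells with at least 2 of the basophil markers *Mcpt8*, *Cd200r3*, *Fcer1a* and *Ms4a2* were pooled. The 53 such cells of S2 held 42 of its 75 *Il6* UMIs, at 665 CPM, with 16 positive (30.2%, interval 18.3 to 44.3), against 5.13 CPM and 0.439% of its other cells. Of these 53 cells, 27 lay in unnamed cluster 2 and 23 in granulocyte-monocyte progenitor-like cluster 9. In cluster 9, at least 2 basophil markers were held by 9 of the 10 *Il6*-positive cells and by 23 of all 527 cells. At least 2 of 5 progenitor markers were held there by all 10 positive cells, but also by 478 of the 527. In cluster 2, basophil markers were held by 6 of 19 positive cells and 27 of all 351 cells. Progenitor markers were held there by 7 of the 19 and 74 of the 351. Which kind the *Il6*-positive cells belong to was not tested. By the basophil marker rule, E2 had 2 cells, both positive with 14 UMIs, and the other 4 tumors had 0, where *Il6* was at most 0.463 CPM over all cells. *Il1b* in the same 53 cells stood at 127 CPM, against 51.3 CPM in the other cells of S2.

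*Il23a*, coding for the p19 subunit of IL-23, was the exception to the myeloid pattern. Of its 2332 UMIs, 2261 came from S3, and 1896 of these lay in 374 of its 1566 tumor cells (225 CPM), against 22.3 CPM in the immune-like cells of that tumor. Within the tumor cells of S3, cluster 7, led by *Fgf15*, *S100a7a*, *Il23a*, *Csf1*, *Fosl1* and *Hmga2*, held 1807 of the UMIs at 390.5 CPM (interval 373 to 409), with 46.6% of its 697 cells positive and up to 56 UMIs in a cell. Cluster 2 held 27.9 CPM (22.4 to 34.4) in 774 cells and cluster 22 held 1.53 CPM in 95 cells, so the level differed more than 10 times between tumor cell clusters of 1 tumor. *Smarcb1* stood at 0.0628, 0.0403 and 0.0555 of its expected level in clusters 7, 2 and 22. Among *Il23a*-positive tumor cells 8.56% had a UMI of *Ptprc*, against 6.32% of all tumor cells and 36.4% of immune-like cells of S3, and the positive cells were deeper (median 7108 against 4164.5 UMIs).

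Other cells of S3 also held the transcript. An unnamed cluster of 203 cells, led by *Klk8*, *Timp1*, *S100a6*, *Crabp1* and *Il23a*, had 337 CPM, with *Smarcb1* at 0.271 of the expected level and *Ptprc* in 2.96% of cells. Of the 87 *Il23a* UMIs in monocyte-like cells, 77 lay in the 80 cells of cluster 12, with *Ptprc* in 35.0% of them. Its leading genes in this tumor (*Il23a*, *Scd1*, *Klk8*, *Pdpn*, *Crabp1*) overlap with those of the unnamed cluster. The monocyte markers summed to 1247 CPM there, against 3365 and 4215 CPM in monocyte-like clusters 3 and 6 of S3. *Smarcb1* stood at 0.558 of its expected level, beside 0.623 and 1.21 in clusters 3 and 6. The monocyte-like name is thus weakly borne out in cluster 12. Its 80 cells are among the 284 behind each monocyte-like level of S3. *Il12b*, the gene of the p40 partner without which p19 is not secreted as IL-23, had 0 UMIs in the tumor cells of every mouse, an upper limit of 0.356 CPM in S3, and was found in dendritic-like cells of 5 tumors at 4.71 CPM (1 UMI, in E3) to 197 CPM (12 UMIs, in E1). In E2, the other tumor with *Il23a*, it lay in monocyte-like (33 UMIs, 40.0 CPM) and neutrophil-like cells (31 UMIs, 134 CPM), with 1 UMI in 203 tumor cells.

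**Figure D4:**
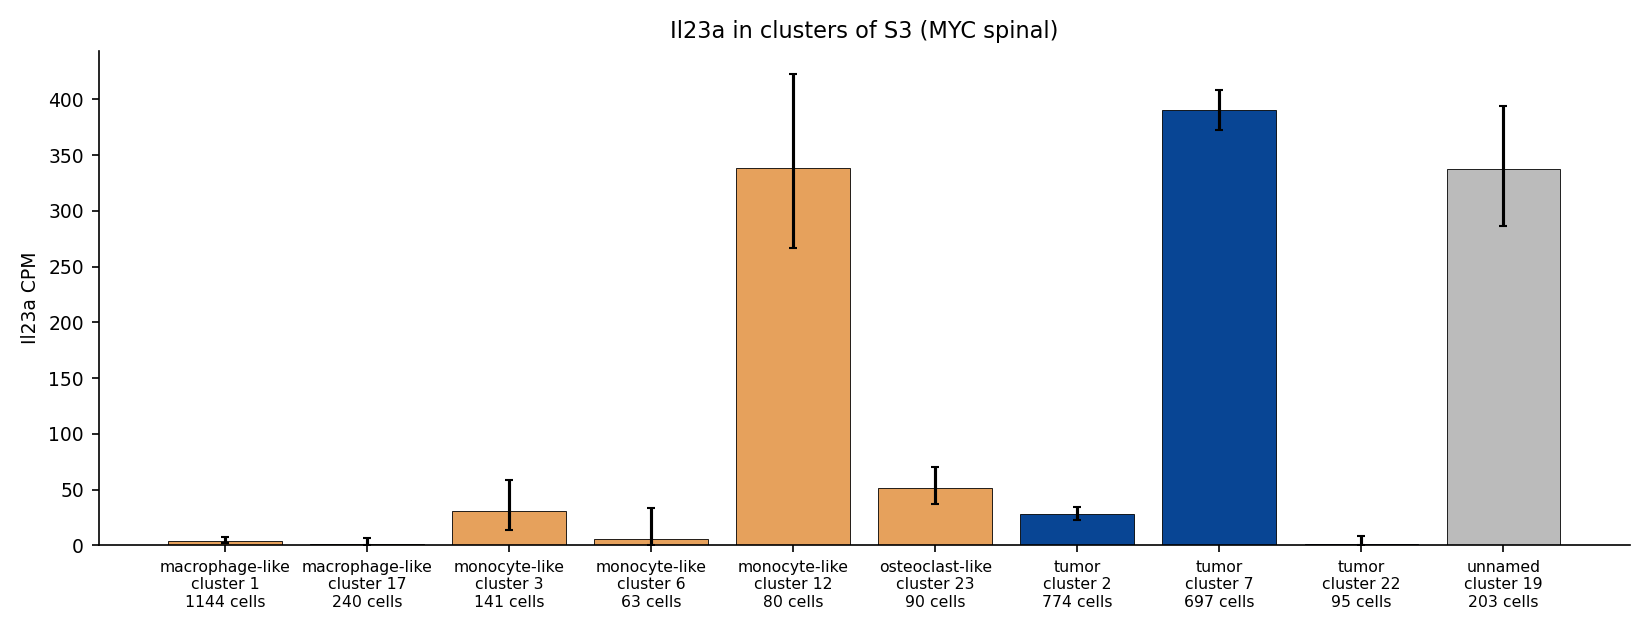
*Il23a* in CPM with exact 95% Poisson intervals for clusters of S3, grouped by kind of cell. Shown are its tumor, macrophage-like and monocyte-like clusters, osteoclast-like cluster 23 (51.9 CPM) and unnamed cluster 19, while its other clusters are not shown. Tumor cluster 7 is highest at 390.5 CPM, followed by monocyte-like cluster 12 and unnamed cluster 19 at 338 and 337 CPM, while macrophage-like clusters lie at 4.28 and 1.26 CPM.

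*Il10*, coding for an inhibitory cytokine, was found in 200 cells with 268 UMIs. It was carried by macrophage-like cells in E3 (84 UMIs in 56 cells, 18.7 CPM), by monocyte-like cells in E2 (42 UMIs in 25 cells, 50.9 CPM) and by osteoclast-like cells in E1 (41 UMIs in 31 of 546 cells, 9.73 CPM). The 2 macrophage-like sums of E1 and S3 held 2.20 and 3.27 CPM, so each eRT had another main source. Dendritic-like cells of all 6 tumors had 0 *Il10* UMIs, at limits of 6.383 to 49.35 CPM.

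*Tgfb1*, whose product is secreted in a latent form, was the broadest of the 10, with 7334 UMIs in 5445 cells. Macrophage-like cells held 185, 149 and 210 CPM in S1 to S3 against 167, 223 and 273 CPM in E1 to E3, and NK-like cells 408, 131 and 191 CPM against 294, 195 and 224 CPM. The groups overlapped in both kinds. Neutrophil-like cells were low, at 20.1 CPM in S2, 82.1 in S3 and 73.7 in E2. Tumor cells held 14.2 CPM in S1, 80.4 in S3, 47.0 in E1, 11.2 in E2 and 38.5 in E3.

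Whether tumor cells share in this expression was asked within each tumor. *Il1b* in tumor cells measured 0 in S1 (limit 5.31 CPM), 41.5 in S3, 27.8 in E1, 233 in E2 and 15.5 in E3, against 83.8, 556, 219, 4022 and 529 CPM in immune-like cells of the same tumors. Tumor cells were the lower in each of the 5 tumors, and their order among tumors was that of the immune-like cells except for E3. By edgeR's quasi-likelihood test over 13259 genes, with the tumor as block, 9 of the 10 cytokines were lower in tumor cells at an adjusted p under 0.05, where 17.7% of all genes were lower and 17.1% higher. *Il1b* differed by -4.41 on the log2 scale (SE 0.44, adjusted p = 0.000109), *Osm* by -4.57 (SE 0.31, adjusted p = 2.44e-05) and *Il1a* by -5.01 (SE 0.46, adjusted p = 6.81e-05). *Tgfb1* was the least reduced, by -2.83 (SE 0.40, adjusted p = 0.000699). *Il6* (-4.56, SE 0.89, adjusted p = 0.00560) rested on E2, with -3.39 (adjusted p = 0.0796) in its absence. *Il18* (-3.20, SE 0.86, adjusted p = 0.0194) missed the threshold without S3, E2 or E3, at adjusted p-values of 0.0777, 0.0607 and 0.0548. For *Il23a*, which was in 2 tumors only, the difference was 0.90 (SE 1.5, adjusted p = 0.696), a value carried by S3.

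Markers of leukocytes were also found in tumor cells. The 9 macrophage markers summed to 398.5 to 1985 CPM in tumor cells, against 13220 to 101400 CPM in macrophage-like cells, with 6 to 9 of the 9 found. These markers were highest in E3, where *Il1b* was 15.5 CPM in tumor cells, 9.09 in T-like cells and 529 in immune-like cells. They stood at 549.9 CPM in E2, where *Il1b* was 233 CPM in tumor cells, 369.6 in T-like cells and 4022 in immune-like cells. Of the defining ones, *Mrc1* was at 0 in S1 and E1 and *Csf1r* in S1. The 12 neutrophil markers summed to 61.9 to 957 CPM, with 2 to 12 found and *Ngp* and *Ltf* at 0 in all but S3. In S3, 25.8% of the 159 *Il1b*-positive tumor cells held *Ptprc* against 6.32% of all its tumor cells, in E3 26.9% of 26 against 3.23%, and in E2 6.56% of 61 against 4.43%. The part of free RNA or mixed droplets in tumor cell *Il1b* was not tested.

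The same tumors allowed immune kinds to be compared with macrophage-like cells over 8269 genes, in 1 blocked fit of 44 sums. In neutrophil-like cells, 4 cytokines were higher, where 11.9% of all genes were, and 1 was lower, where 11.5% were. The split over all genes was 987 higher to 948 lower, but 509 to 2820 without TMM factors. Under that scaling no called cytokine changed sign, but *Osm* lost its call, as it also did with filters of 500 genes and 10% mitochondrial UMIs. *Il1rn* was higher by 2.40 (SE 0.52, adjusted p = 0.000683), *Tnf* by 2.15 (SE 0.49, adjusted p = 0.00113), *Osm* by 1.53 (SE 0.52, adjusted p = 0.0285) and *Il23a* by 4.36 (SE 1.10, adjusted p = 0.00867). *Tgfb1* was lower by -1.04 (SE 0.31, adjusted p = 0.0113). *Il1b* did not pass, at 1.39 (SE 0.60, adjusted p = 0.0860). Without E2 the difference of *Osm* was 0.96 (adjusted p = 0.174) and that of *Il23a* 2.73 (adjusted p = 0.139), so both rest on that tumor. *Osm* also missed the threshold without S2 (adjusted p = 0.0602) or E1 (adjusted p = 0.0849), and *Tgfb1* without S2 (adjusted p = 0.134).

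Monocyte-like cells could hardly be separated from macrophage-like cells by these genes. Only *Il23a* passed, higher by 3.91 (SE 1.02, adjusted p = 0.0484), where 1.85% of genes were higher and 1.25% lower, and without the 80 cells of cluster 12 in S3 it was 2.39 (adjusted p = 0.249). The call was also lost without S3 (2.04, adjusted p = 0.511) and, at adjusted p-values of 0.0519 to 0.0680, without S2, E1, E2 or E3. *Il1b* differed by -0.45 (SE 0.47, adjusted p = 0.747) and *Tnf* by -0.01 (SE 0.30, adjusted p = 1). Dendritic-like cells were lower in 2 of the cytokines, where 4.64% of genes were lower and 4.62% higher. *Il1a* was lower by -3.05 (SE 0.76, adjusted p = 0.00735), a call lost without E2 (adjusted p = 0.128) or without E3 (adjusted p = 0.0598), and *Tgfb1* by -0.72 (SE 0.23, adjusted p = 0.0391), a call lost when any tumor other than S3 was left out (adjusted p from 0.0626 to 0.196). The difference of *Il1b* was 0.12 (SE 0.47, adjusted p = 0.959), smaller than its error.

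T-like cells were lower in 7 of the cytokines and higher in none of the 10, where 18.7% of genes were lower and 12.7% higher. *Il1b* was lower by -4.78 (SE 0.62, adjusted p = 4.70e-08), *Il1rn* by -3.61 (SE 0.57, adjusted p = 2.38e-06), *Il18* by -4.70 (SE 0.72, adjusted p = 1.46e-06) and *Tgfb1* by only -0.84 (SE 0.23, adjusted p = 0.00399). *Tnf* was lower by -1.53 (SE 0.51, adjusted p = 0.0188), a call lost without S1 (adjusted p = 0.0715) or S3 (adjusted p = 0.0501). Osteoclast-like cells, the bone-resorbing relatives of macrophages, were compared after the values had been seen. They were lower in 7 of the cytokines, where 13.8% of genes were lower and 8.88% higher, with *Il1b* at -4.32 (SE 0.75, adjusted p = 2.23e-05) and *Il1rn* at -1.52 (SE 0.56, adjusted p = 0.0433), the latter lost when S1, S3, E1 or E3 was left out (adjusted p from 0.0648 to 0.296). *Tnf* lost its call without E1 (adjusted p = 0.106) and *Osm* without S3 (adjusted p = 0.0505). *Il10* was not lower in them, at 0.54 (SE 0.85, adjusted p = 0.738).

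**Figure D5:**
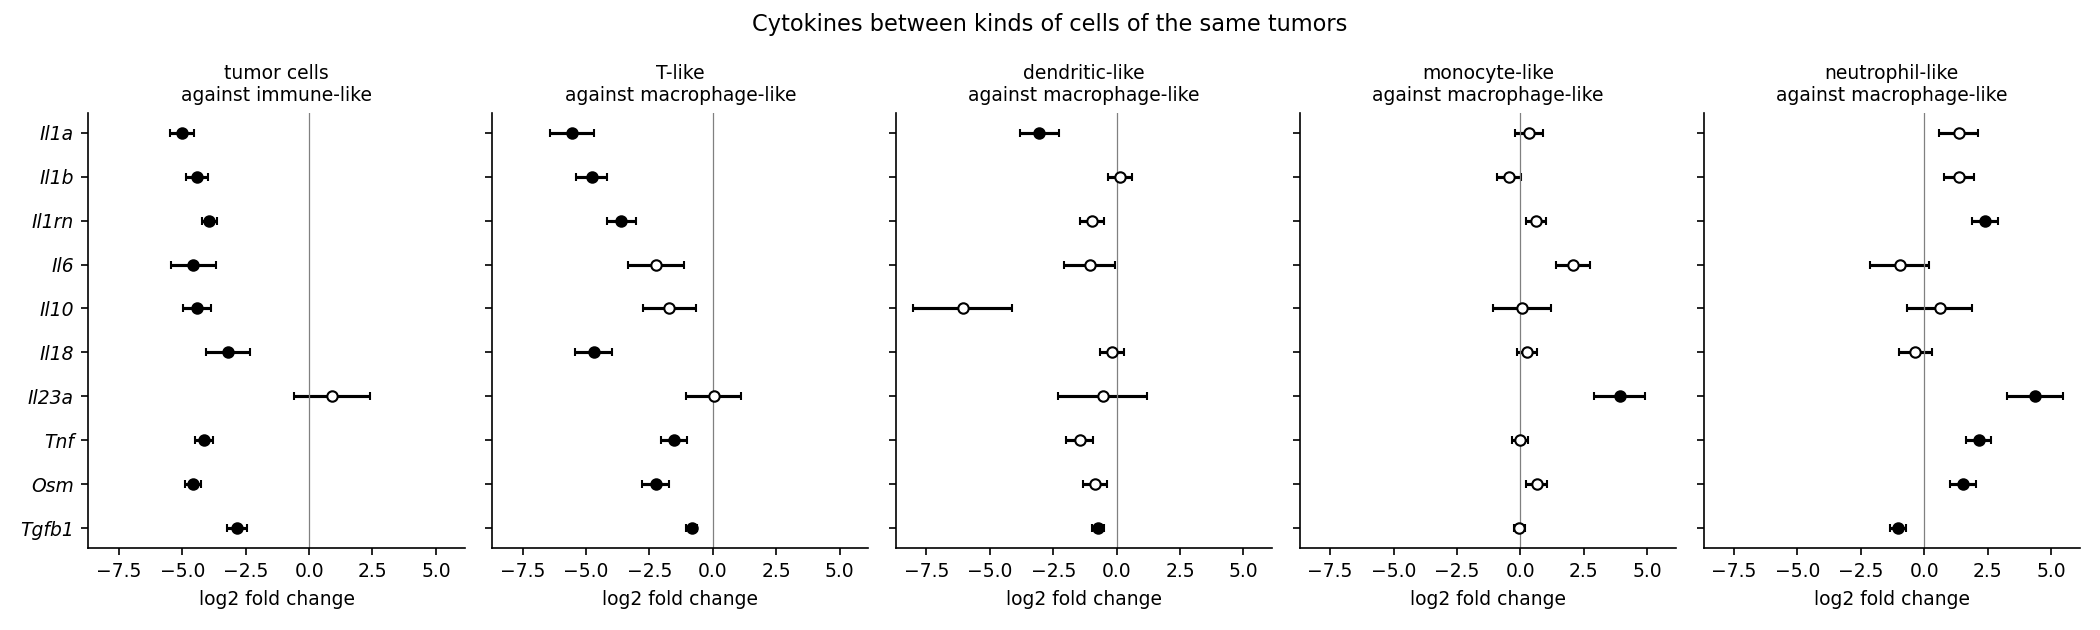
Log2 fold change with SE (horizontal axis) of each cytokine in 5 comparisons within tumors (panels), filled points marking an adjusted p under 0.05. Of the points for tumor cells, 9 are filled and left of 0, as are 7 for T-like cells, and *Il1rn*, *Tnf*, *Osm* and *Il23a* lie right of 0, filled, for neutrophil-like cells.

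Comparing eRT with MYC spinal, none of the cytokines that could be tested passed in immune-like cells (8 tested), macrophage-like cells (7), monocyte-like cells (6) or tumor cells (2, *Il1b* and *Tgfb1*), the others being too low. In immune-like cells *Il1b* was 83.8, 54.8 and 556 CPM in S1 to S3 against 219, 4022 and 529 CPM in E1 to E3, overlapping ranges with a log2 difference of 2.89 (SE 1.35, adjusted p = 0.961). Of 10130 genes, 0 were called (0%; 487 at an unadjusted p under 0.05, and 58 by DESeq2). *Il1a* had the largest difference of the cytokines, at 5.94 (SE 1.55, adjusted p = 0.817), followed by *Il10* at 3.25 (adjusted p = 0.961), *Tnf* at 2.97 (adjusted p = 0.929), *Il1b* and *Osm* at 2.68 (adjusted p = 0.860). *Il1a* and *Il10* are unlisted in S2, counted there as 0, and their differences rest on E2 and E3. *Il1a* was 4.73, 0 and 1.67 CPM in S1 to S3 against 6.35, 180 and 116 CPM in E1 to E3. *Il10* was 1.575, 0 and 2.97 CPM against 2.22, 20.3 and 15.9 CPM. In macrophage-like cells 0 of 7105 genes were called (0%; 163 at an unadjusted p under 0.05, and 8 by DESeq2), with *Il1b* at 1.73 (SE 0.82, adjusted p = 0.9996). In tumor cells, with 2 MYC spinal and 3 eRT tumors, 0 of 6389 genes were called (0%; 318 at an unadjusted p under 0.05, and 89 by DESeq2), and *Il1b* differed by 2.44 (SE 1.82, adjusted p = 0.998). Monocyte-like cells were added to these comparisons after the values had been seen, and none of the cytokines was among the 0.0849% of genes called (*Il1b* 3.57, SE 1.42, adjusted p = 0.405).

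In neutrophil-like cells the only eRT sum was that of E2, so the fit against S2 and S3 holds no spread among eRT tumors, and its calls, 8.64% of genes in either direction, are given as a description of E2 with no p. The log2 differences were 5.64 for *Il1b*, 5.29 for *Il1rn*, 5.43 for *Tnf* and 4.72 for *Osm*, beside 0.84 for *Tgfb1* and a median of -0.31 over all genes. *Il1a*, with 83 UMIs in E2 and 1 in S3, and *Il23a*, with 31 and 6, are unlisted in S2 and entered the fit through E2, where they are high, so no fold is given. With all 6 tumors clustered together, which gave 4 sums, no gene was called and *Il1b* stood at 4.63 (edgeR, adjusted p = 0.380).

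The 35 other genes of these pathways were receptors, processing enzymes, partner proteins and feedback genes, listed with earlier results known. Between tumor and immune-like cells, 22 of 35 were lower in tumor cells and 3 higher, beside 17.7% and 17.1% of all genes, with a median log2 difference of -2.14 against 0.03 over all genes. All 7 feedback genes and 5 of 6 processing genes were lower, among them *Casp1*, which cuts pro-IL-1β (-4.72, SE 0.40, adjusted p = 4.58e-05), the inflammasome sensor *Nlrp3* (-4.32, SE 0.36, adjusted p = 4.58e-05) and its adaptor *Pycard* (-3.88, SE 0.33, adjusted p = 5.06e-05). *Ltbp1*, which holds latent TGF-β in the matrix, was higher (4.32, SE 0.38, adjusted p = 0.000101), at 198 CPM in tumor cells of S3 and 49.1 in E1 but 0 in S1. *Osmr*, the oncostatin M receptor subunit, was singled out after its values were seen and is 1 of the 3 higher genes. It had 0, 1.42, 12.8, 27.2 and 41.2 CPM in tumor cells of S1, S3, E1, E2 and E3. All immune-like cells together held 2 UMIs, so it entered the fit through tumor cells, where it is high, and no fold is given.

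Among immune kinds, neutrophil-like cells had 7 of 29 pathway genes higher and 2 lower than macrophage-like cells, beside 11.9% and 11.5% of all genes (median 0.65 against -0.13 over all genes), led by *Il18r1* (3.82, SE 0.93, adjusted p = 0.00233) and by the IL-1 decoy receptor *Il1r2* (3.66, SE 0.47, adjusted p = 1.62e-07). *Il1r2* measured 286, 229 and 2336 CPM in neutrophil-like cells of S2, S3 and E2. T-like cells had 2 of 29 higher and 13 lower, where 12.7% of all genes were higher and 18.7% lower. The IL-18 receptor gene *Il18r1* was higher in them by 5.65 (SE 0.62, adjusted p = 1.45e-09). Dendritic-like cells had 4 higher and 4 lower (4.62% and 4.64% over all genes) and osteoclast-like cells 1 higher and 13 lower (8.88% and 13.8%). Monocyte-like cells had 1 of 29 higher, near the 1.85% over all genes (*Thbs1*, an activator of latent TGF-β, 2.25, SE 0.50, adjusted p = 0.00652). In neutrophil-like cells of E2, again with no spread among eRT tumors, the median log2 difference from S2 and S3 was 2.28 over 23 pathway genes and 4.05 over the 7 feedback genes, against -0.31 over all genes. In the other comparisons of eRT with MYC spinal, no pathway gene passed in edgeR's test.

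Genes whose levels ran closest to those of a cytokine were sought over 49 sums of kind and tumor, which share libraries, among 5160 genes. For *Il1b* these were *Cd14*, the endotoxin co-receptor (Pearson r = 0.91), *Ccrl2* (0.89) and *Cxcl2*, a neutrophil-attracting chemokine (0.89), and without the 8 sums of E2 the values were 0.88, 0.82 and 0.81. For *Tnf*, *Hcar2*, *Cxcl3* and *Trem1* came first (0.81, 0.80 and 0.80), falling to 0.48, 0.27 and 0.56 without E2. For *Il1rn* they were *Slc7a11*, *Irg1* and *Ptafr* (0.88 each, and 0.74, 0.69 and 0.82 without E2), and for *Tgfb1* *Rgs1*, *Cotl1* and *Slc3a2* (0.82, 0.77 and 0.76).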

How the data were processed

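Tumors were dissociated with Accutase, red cells lysed, viable cells sorted, and libraries made with the 10x Genomics 3′ v2 chemistry. Per the labels, reads were processed with Cell Ranger 2.0.2 and the build was mm10. The authors deposited UMI counts per gene and cell for each tumor, without normalization. Filters of 200 genes as a minimum and 25% mitochondrial UMIs as a maximum were applied per cell.

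Integration was done by subtype in Seurat 5.3.0 (2000 variable genes, 30 dimensions, 20 neighbors, resolution 0.8) with the cytokines, the pathway genes and *Smarcb1* left out. Naming a cluster required 3 markers or more, each detected in 10% of cells and raised by a log2 fold of 1, and tumor cells were clusters with *Smarcb1* under 0.25 of the level expected from immune-like cells. A check of that level for each tumor within a cluster was set after the data were seen. All names are meant as "-like"; immune-like cells pool all immune kinds but not osteoclast-like cells. The doublet caller Scrublet marked 21 cells, a share that shows it did not work here, so all cells stayed in. Barcodes were renumbered, so barcodes shared between libraries could not be counted.

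UMIs were summed per tumor and kind (at least 10 cells) and tested with edgeR 4.0.16 (quasi-likelihood, TMM factors, filterByExpr, Benjamini-Hochberg adjustment at 0.05), and kinds within tumors with the tumor as block, since they come from 1 animal. The SE is the log2 fold change divided by the root of F. Tests ran over all genes and were tested on simulated counts. Likeness used log2(CPM + 10) for genes with a mean of at least 20 CPM, and its result for *Il18* is not reported here. All 10 cytokines are named, and up to 8 called pathway genes of largest change with a mean of at least 20 CPM. The members and lists were chosen with earlier results of these data known.

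Alternatives were library sizes without TMM, DESeq2 1.42.0, every gene with at least 1 UMI, filters of 500 genes and 10% mitochondrial UMIs, the 843 highest Scrublet scores left out, resolutions 0.4 and 1.6, joint integration, *Smarcb1* limits of 0.15 and 0.5, strain as covariate, no block, each tumor left out, and thinning to 500 UMIs. Each tumor comes from a separate mouse. Gene positions are from GENCODE vM21 (GRCm38).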

Additional observations from a re-analysis of the deposited data

Results flagged for a closer look

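*Il18* in monocyte-like cells was set against macrophage-like cells of the same tumor. In S1, S2 and S3, monocyte-like cells held 28.36, 3.404 and 17.55 CPM (6, 7 and 12 UMIs) against 31.12, 14.89 and 26.76 CPM (16, 1 and 90 UMIs) in macrophage-like cells. In E1, E2 and E3 they held 30.06, 41.21 and 20.99 CPM (28, 34 and 7 UMIs) against 11.01, 22.08 and 18.06 CPM (20, 10 and 81 UMIs). The values were flagged because the first is the lower in all 3 MYC spinal tumors and the higher in all 3 eRT. The exact 95% Poisson intervals overlap in every tumor except E1 (19.97 to 43.44 against 6.724 to 17.0 CPM), where monocyte-like cells were the higher. The S2 macrophage-like value is 1 UMI, so these counts do not settle whether the direction differs between the subtypes. The difference between the subtypes was not tested.

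Cells that took no name also held cytokine transcripts. In S2, *Il6* stood at 102.0 CPM in unnamed cells against 6.362 CPM in immune-like cells. In S3, *Il23a* stood at 39.06 CPM in unnamed cells against 22.26 CPM in immune-like cells.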

How the results depend on the processing

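Of the 37 cytokine differences called, 6 of them in the neutrophil-like comparison that rests on E2 alone, 13 kept their call under every setting run, 24 lost it under at least 1 and 0 changed sign, and across 542 refits 71 lost the call. The cause was not tested. For eRT against MYC spinal, DESeq2 called 58 genes in immune-like, 8 in macrophage-like and 89 in tumor cells where edgeR called 0, and testing every gene with at least 1 UMI called 14 and 16 in the latter 2. The stricter cell filter called 1 gene in macrophage-like cells. With a tumor left out, the count stayed 0 in immune-like, macrophage-like and tumor cells. In neutrophil-like cells the 315 calls became 186 with DESeq2, 123 with the stricter filter and 0 with all tumors integrated together (edgeR, 261 at an unadjusted p under 0.05). Against macrophage-like cells, the 1935 calls in neutrophil-like cells became 3329 without TMM factors (509 higher, 2820 lower) and 1150 with the stricter filter, and ranged from 1135 (without S2) to 1909 with a tumor left out, 1260 without E2. The 256 in monocyte-like cells became 104 with DESeq2, 585 with every gene and 127 at resolution 0.4, and ranged from 139 (without S3) to 214, with 167 without E2 and 161 without E3. The 766 in dendritic-like cells became 463 at resolution 0.4 and ranged from 518 to 748. The ranges were 2197 to 2502 in T-like cells and 3456 to 4430 for tumor against immune-like cells.

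Kinds of cells were paired by animal, and without the replicate block the calls became 2951 for tumor against immune-like cells, 297 for dendritic-like, 1719 for T-like and 0 for monocyte-like cells (edgeR, 771 at an unadjusted p under 0.05). Without the block, *Il1a* and *Il1b* in tumor cells missed the threshold at adjusted p-values of 0.0522 and 0.0669. The comparison of subtypes has different animals in its groups. No paired analysis was possible because equal replicate numbers in the labels name different mice there. For neutrophil-like cells, strain as covariate and leaving out S2, S3 or E2 were not run, as too few sums remained. Thinning to 500 UMIs moved 11 of 96 shares of positive cells. Low depth in S2 and the 68 to 203 tumor cells of E1, S1 and E2 limit what can be detected there.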
